A study of Mus musculus with 28 samples.

Results

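The 10 genes described here are regulators of fat cell formation and genes that fat cells use to handle lipid. *Pparg*, *Cebpa*, *Cebpb*, *Cebpd* and *Zfp423* encode transcription factors of the adipogenic programme, and *Fabp4*, *Lpl*, *Cd36*, *Plin1* and *Adipoq* encode proteins of fatty acid transport, lipid release and storage and an adipocyte hormone. They were chosen by symbol, through the Ensembl identifier of each row, and are 10 of the 50600 genes in the count table. All 10 matched 1 row each. RNA was sequenced from mammary cells sorted from adult *PdgfrαCre R26mTmG* mice on a C57BL/6 background, in which cells that express the Cre, and all their progeny, exchange membrane tdTomato for GFP. From each of 7 mice, 4 populations were sorted (GFP+ and tdTomato+ stroma, GFP+ and tdTomato+ luminal epithelial cells), which gave 28 libraries. The 8 groups are these 4 populations in 4 untreated mice (replicates 1 to 4) and in 3 mice given estrogen plus progesterone (E+P, replicates 1 to 3). The Cre is not inducible, so GFP marks a past or present expression of *Pdgfra* and not the state of a cell at the time of the sort, and endothelial, erythroid and haematopoietic cells were gated out with CD31, Ter119 and CD45.

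Adipogenesis runs as a cascade. *Cebpb* and *Cebpd*, which encode C/EBPβ and C/EBPδ, act early and bring on *Pparg*, the nuclear receptor that is required for fat cell formation, and *Cebpa*, with which it holds the differentiated state, while *Zfp423* encodes a zinc finger protein that marks committed preadipocytes. The targets differ in timing and place. *Lpl* encodes lipoprotein lipase, a secreted enzyme that frees fatty acids from circulating triglyceride. *Cd36* encodes a fatty acid translocase that endothelial and muscle cells carry too, and *Fabp4* encodes a fatty acid carrier of adipocytes that is also made by capillary endothelium and macrophages. *Plin1*, which coats the lipid droplet, and *Adipoq*, which encodes adiponectin, belong to the mature fat cell. Mature fat cells float and burst easily, and cell sorting usually leaves them out.

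The genes lie on 7 chromosomes of GRCm38. *Pparg* spans chr6:115360951-115490399, *Cebpa* chr7:35119293-35121928, *Cebpb* chr2:167688915-167690418, *Cebpd* chr16:15887286-15891031, *Zfp423* chr8:87661810-87959595, *Fabp4* chr3:10204088-10208576, *Lpl* chr8:68880491-68907448, *Cd36* chr5:17781690-17888801, *Plin1* chr7:79720218-79732903 and *Adipoq* chr16:23146536-23158028, and all are annotated as protein coding. On the opposite strand, *Cebpb* overlaps *Tmem189* and *Cebpd* overlaps *Spidr*, which held 7593 and 11059 counts over all libraries beside 39385 and 103942 for the members. Antisense genes overlap *Cebpa* (*Gm45091*, 131 counts) and *Pparg* (*Gm44079*, 4 counts). Whether the counting used strand is not given in the sources used here, so reads of such pairs cannot be told apart.

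RefSeq promoters of GRCm38.p6, from 250 bases before to 50 bases after a start site, matched 7 of the 10 genes with 10 start sites. *Cebpd*, *Fabp4* and *Lpl* were not among them. Of these, 3 are printed, those of the receptor, of its partner in the differentiated state and of *Cd36*, the target that was furthest below tdTomato+ stroma in GFP+ stroma. PPARγ with its partner RXR is known to bind 2 copies of AGGTCA set 1 base apart, so this repeat was searched on both strands, with at most 1 mismatch in each copy. *Cd36* was the only one of the 7 genes that held it, on the minus strand 63 bases before the start (capitals), against 2.4% of 32851 promoters; the exact repeat was in 0.0396% of all promoters and in none of the 10. The *Cebpa* promoter held a TATAAA 30 bases before the start (capitals), a word that 13.6% of all promoters contain. The palindrome TTGCGCAA, which C/EBP dimers bind, was in 0.183% of all promoters and in none of the 10. The third *Pparg* start site, which begins the form of the receptor that is particular to fat cells, held neither motif nor a single AGGTCA, which 16.3% of promoters contain and which lay at the other 2 *Pparg* start sites, 28 and 9 bases before the start.
Cd36 (chr5:17835847-17836146, minus strand): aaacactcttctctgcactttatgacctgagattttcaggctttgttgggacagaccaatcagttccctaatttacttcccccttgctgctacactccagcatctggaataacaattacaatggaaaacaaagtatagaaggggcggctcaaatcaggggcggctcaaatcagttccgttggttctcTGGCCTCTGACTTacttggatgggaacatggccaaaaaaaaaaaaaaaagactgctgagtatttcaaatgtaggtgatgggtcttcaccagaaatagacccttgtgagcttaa
Cebpa (chr7:35119043-35119342, plus strand): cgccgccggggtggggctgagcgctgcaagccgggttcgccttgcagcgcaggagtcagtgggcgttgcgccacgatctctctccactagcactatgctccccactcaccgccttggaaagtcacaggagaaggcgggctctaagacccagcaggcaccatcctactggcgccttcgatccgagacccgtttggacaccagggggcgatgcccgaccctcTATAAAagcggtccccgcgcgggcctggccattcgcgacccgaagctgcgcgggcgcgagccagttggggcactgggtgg
Pparg, start site of the fat cell form (chr6:115421816-115422115, plus strand): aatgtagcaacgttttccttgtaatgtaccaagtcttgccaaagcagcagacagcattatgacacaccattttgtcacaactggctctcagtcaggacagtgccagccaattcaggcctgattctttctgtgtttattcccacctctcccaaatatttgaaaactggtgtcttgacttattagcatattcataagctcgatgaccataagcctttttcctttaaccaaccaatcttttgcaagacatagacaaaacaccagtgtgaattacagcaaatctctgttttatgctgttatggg

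Each library held 8623383 to 24583803 counts, so that 3 counts stood for 0.116 to 0.302 CPM (counts scaled to 1000000 per library, with TMM scaling), and libraries of a group had log-level correlations of 0.917 to 0.984 with each other. The sorted populations were set against marker genes. Summed over 8 luminal epithelial markers, luminal libraries held 3928 to 7302 CPM and stromal libraries 3.55 to 471 CPM. Summed over 8 fibroblast markers, GFP+ stroma held 31010 to 60481 CPM and tdTomato+ stroma 1770 to 6476 CPM. The tdTomato+ stroma instead carried pericyte and smooth muscle genes (10 genes, 6938 to 9968 CPM, against 139 to 317 CPM in GFP+ stroma) and skeletal muscle genes (7 genes, 2377 to 21068 CPM, against 7.65 to 16.1 CPM). The label stroma thus covers different mixtures of cells in the GFP+ and tdTomato+ sorts, and in bulk RNA fewer cells of a type and less RNA per cell cannot be told apart.

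The members were present at very different levels. Levels between genes are compared as CPM per kilobase of exon, as mean ± SD of 4 untreated mice. In GFP+ stroma *Lpl* led with 104 ± 23, followed by *Cebpd* with 81.4 ± 23.9 and *Cebpb* with 46.5 ± 18.3, and *Fabp4*, *Pparg*, *Cd36*, *Zfp423* and *Cebpa* lay between 17.1 and 3.77. In tdTomato+ stroma *Cebpb* (101 ± 22.3) and *Cebpd* (87.0 ± 27.2) led, *Cd36* (43.0) and *Fabp4* (39.6) followed, and *Lpl* was at 11.7. In both luminal populations *Cebpd* and *Cebpb* were the 2 highest members. The level of *Fabp4* per kilobase is understated here, because its annotated exons together cover the whole gene. Lengths joined all annotated exons of a gene, and those of *Lpl* came to 10478 bases, the most of any member. Its level per kilobase and its rank may be understated too.

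**Figure D1:**
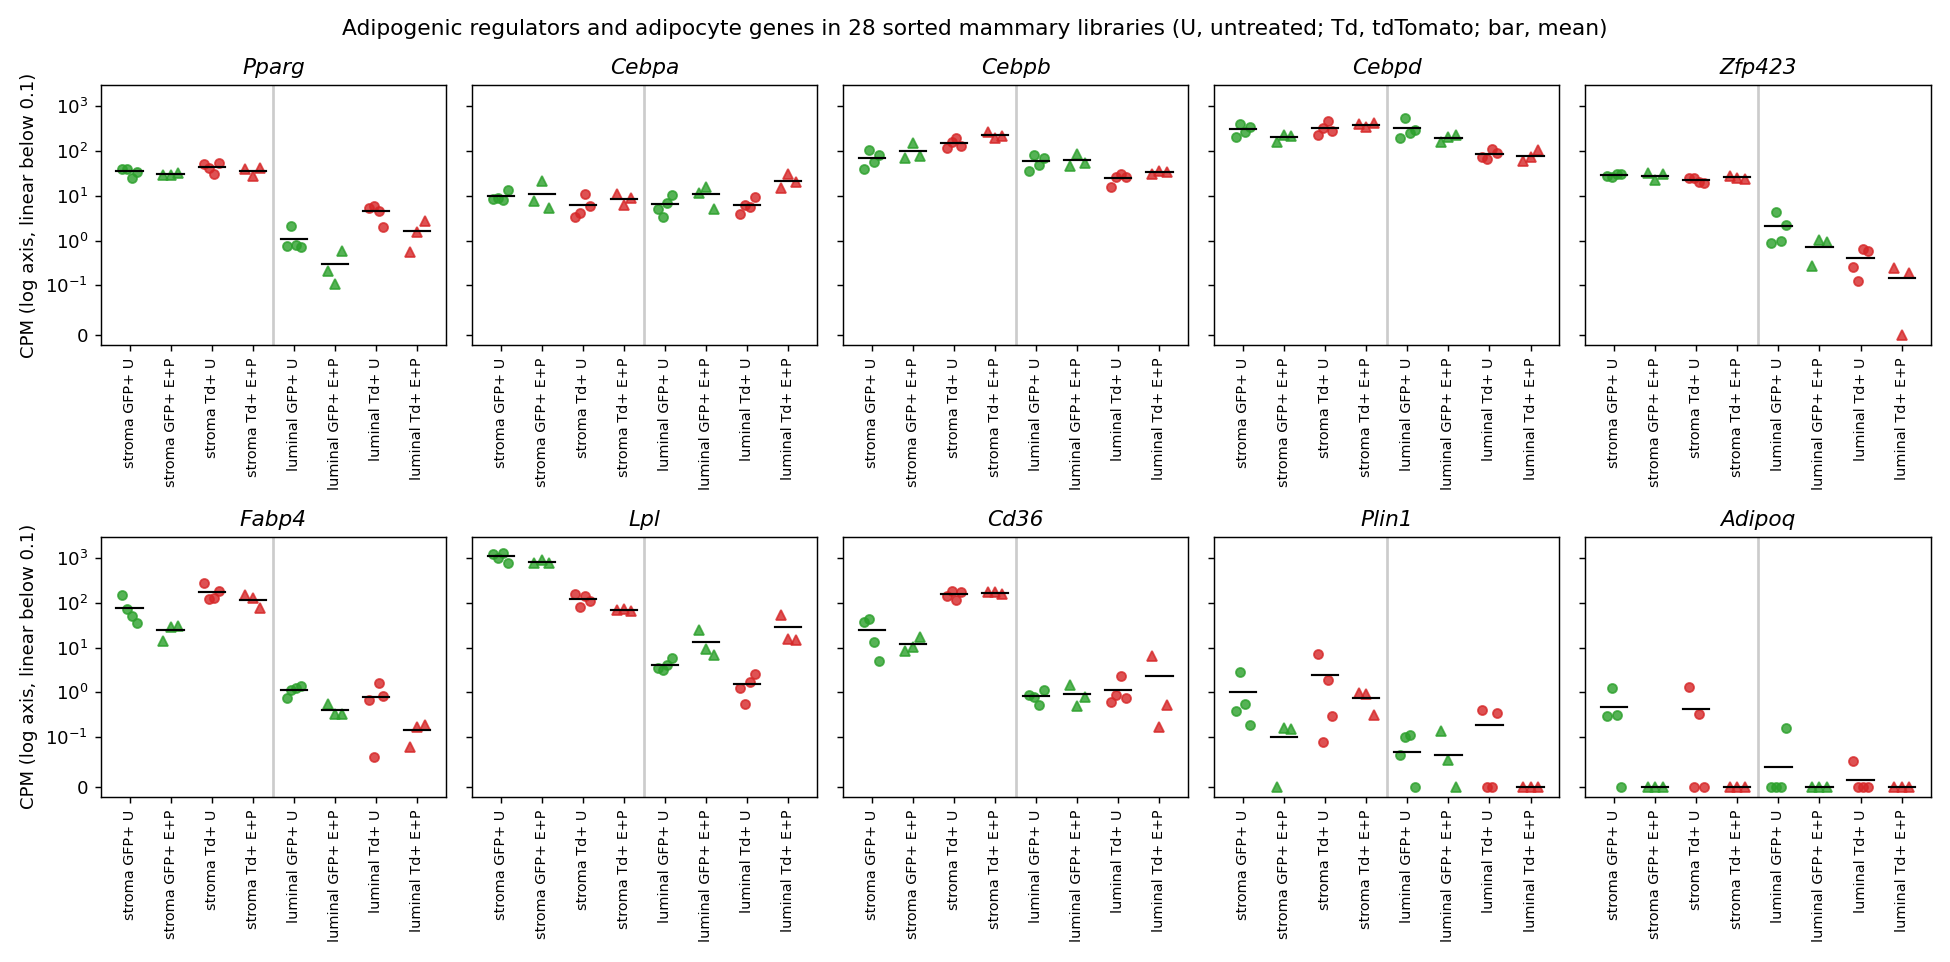
CPM of each member in every library, on an axis that is linear below 0.1 CPM and logarithmic above, by group (circles untreated, triangles E+P, green GFP+, red tdTomato+, bars group means). *Lpl* separates GFP+ from tdTomato+ stroma, *Fabp4*, *Zfp423* and *Pparg* separate stroma from luminal cells, *Cd36* does so but for a stromal library at 5.14 and a luminal one at 6.41 CPM, and *Plin1* and *Adipoq* lie near 0.

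The study asked what the GFP+ stroma is and what it shares with GFP+ luminal cells, so each colour was first compared between lineages. *Pparg* was a stromal gene in both. It held 24.7 to 40.4 CPM in the 7 GFP+ stromal libraries and 27.3 to 53.6 CPM in the 7 tdTomato+ ones. In GFP+ luminal cells it was at 0.707, 0.76, 0.8 and 2.11 CPM without and at 0.108, 0.204 and 0.583 CPM with hormone, and in tdTomato+ luminal cells at 2.06 to 5.90 and 0.561 to 2.76 CPM. No luminal library reached a stromal one. The log2 fold change was 5.79 ± 0.35 (SE) for GFP+ cells (55.4-fold, adjusted p = 2.1e-13) and 3.85 ± 0.29 for tdTomato+ cells (14.5-fold, adjusted p = 2.2e-11), with the difference in 7 of 7 mice each time.

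*Zfp423* was more even across the stroma than any other member. Its 14 stromal libraries lay between 19.1 and 32.5 CPM, and its 14 luminal libraries between 0 and 4.43 CPM. It was 22.9-fold higher in stroma for GFP+ cells (log2 4.52 ± 0.33, adjusted p = 6.7e-12) and 102-fold higher for tdTomato+ cells (6.68 ± 0.40, adjusted p = 1.8e-13). Many of the tdTomato+ luminal values were near the level of 3 counts, so the size of the second difference rests on few reads.

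The C/EBP genes did not share this pattern. *Cebpb*, in 7 of 7 mice, was 6.43-fold higher in tdTomato+ stroma than in tdTomato+ luminal cells (189 against 29.1 CPM, adjusted p = 8.6e-10), and *Cebpd* was 4.35-fold higher (357 against 81.9 CPM, adjusted p = 8.4e-09). Among GFP+ cells *Cebpb* was at 84.7 CPM in stroma and 60.1 CPM in luminal cells (log2 0.48 ± 0.23, adjusted p = 0.0746), and *Cebpd* at 253 and 262 CPM (log2 -0.04 ± 0.21, adjusted p = 0.885). The untreated GFP+ mice ranked alike in both lineages for *Cebpd*. Replicates 1 to 4 were at 206, 412, 263 and 339 CPM in stroma and at 192, 548, 256 and 299 CPM in luminal cells. *Cebpa* did not pass the test in either colour, with log2 differences of 0.33 ± 0.33 (adjusted p = 0.402) and -0.69 ± 0.33 (adjusted p = 0.0712).

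The lipid genes were stromal. *Fabp4* held 14.1 to 276 CPM in stroma and 0.0608 to 1.59 CPM in luminal cells, a 64.8-fold difference for GFP+ cells (adjusted p = 1.4e-11) and a 406-fold difference for tdTomato+ cells (adjusted p = 2.2e-13). *Cd36* held 5.14 to 187 CPM in stroma and 0.171 to 6.41 CPM in luminal cells, and was 20.3-fold (adjusted p = 9.6e-07) and 107-fold (adjusted p = 1.5e-09) higher in stroma, the latter a log2 difference of 6.74 that was 8.02 without E+P replicate 1. *Lpl* was 128-fold higher in GFP+ stroma than in GFP+ luminal cells (957 against 8.76 CPM, log2 7.0 ± 0.40, adjusted p = 5.5e-13). For tdTomato+ cells the *Lpl* difference was 13.9-fold (log2 3.79 ± 0.35, adjusted p = 1.9e-09), which joined a log2 difference of 6.29 ± 0.51 in untreated mice (adjusted p = 6.0e-10) and of 1.3 ± 0.46 in E+P mice (adjusted p = 0.0206).

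The genes of the mature fat cell were near the limit of detection. *Adipoq* had 0 counts in 9 of 14 stromal and 12 of 14 luminal libraries, and in all 12 E+P libraries. The highest values were 1.33 CPM in tdTomato+ stroma of untreated replicate 1 and 1.24 CPM, or 16 counts, in GFP+ stroma of untreated replicate 2. *Plin1* peaked in the same 2 libraries, at 7.31 and 2.87 CPM, and its median was 0.342 CPM over stromal and 0.0269 CPM over luminal libraries. *Plin1* passed the low-count filter through its stromal libraries alone, so its difference between lineages is left as these values, with no test.

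With *Plin1* left out, 5 of 8 members were called at an adjusted p under 0.01 for GFP+ cells, where 52.5% of 19569 genes were called, and 7 of 8 for tdTomato+ cells, where 59.3% were called. *Adipoq* did not pass the filter on low counts. Exact permutation tests, two-sided over paired mice, gave it p-values of 0.25 for GFP+ and 0.5 for tdTomato+ cells, where the smallest possible is 0.0156.

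Whether the difference between stroma and luminal cells itself differed by colour was tested as an interaction. It called 6 of 9 members against 33.2% of all genes, with *Plin1*, which passed the filter through stroma alone, counted and not called. The stromal excess was larger among GFP+ cells for *Lpl* (log2 3.20 ± 0.46, adjusted p = 4.7e-06) and *Pparg* (1.94 ± 0.43, adjusted p = 6.9e-04). It was smaller among GFP+ cells for *Cebpb* (-2.21 ± 0.32, adjusted p = 5.6e-06), *Cebpd* (-2.16 ± 0.30, adjusted p = 2.5e-06), *Zfp423* (-2.16 ± 0.52, adjusted p = 0.00138) and *Fabp4* (-2.65 ± 0.68, adjusted p = 0.0028). The last call did not hold with limma-voom (adjusted p = 0.0733), nor without untreated replicate 4 (0.01), E+P replicate 1 (0.0341) or E+P replicate 2 (0.0166). Without E+P replicate 2, *Pparg* (0.0104) and *Zfp423* (0.0278) were also lost, which left 3 called members. *Zfp423* differed little between the colours in stroma (28.7 and 24.1 CPM), so its interaction came mainly from luminal cells. There its tdTomato+ libraries held 0 to 0.651 CPM, near the level of 3 counts, and the *Zfp423* call is not read as a result.

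The main contrast within the fat pad was GFP+ against tdTomato+ stroma. *Lpl* and *Cd36*, which act in sequence on the same fatty acids, stood at opposite ends. *Lpl* was at 1241, 1018, 1313 and 778 CPM in GFP+ stroma of untreated replicates 1 to 4 and at 776, 924 and 775 CPM in the E+P mice. In tdTomato+ stroma it was at 156, 79.3, 145 and 111.1 CPM and at 67.4, 73.8 and 64.4 CPM. Every GFP+ library was above every tdTomato+ library, and the difference was 10.2-fold (log2 3.35 ± 0.16, adjusted p = 2.7e-11, 7 of 7 mice).

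*Cd36* was at 36.8, 44.5, 13.2 and 5.14 CPM in GFP+ stroma of untreated mice and at 8.52, 10.3 and 16.8 CPM in E+P mice. In tdTomato+ stroma it was at 141, 187, 115 and 176 CPM and at 170, 172 and 159 CPM. These ranges were again separate, in the other direction, with *Cd36* 9.42-fold lower in GFP+ stroma (log2 -3.24 ± 0.42, adjusted p = 4.0e-05, 7 of 7 mice). The GFP+ libraries of untreated mice spread widely, and untreated replicate 4 was the lowest of all.

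*Fabp4*, the fatty acid carrier, was at 148, 74.5, 49.5 and 34.7 CPM in GFP+ stroma without hormone and at 14.1, 28.5 and 30.9 CPM with it, and at 276, 124.1, 129 and 182 CPM and at 146, 129 and 78.5 CPM in tdTomato+ stroma. The ranges overlapped, but within each of the 7 mice the GFP+ sample was lower. The difference was 3.37-fold (log2 -1.75 ± 0.35, adjusted p = 0.00118). It was not called without E+P replicate 1 (-1.52, adjusted p = 0.0103), or in untreated mice alone (-1.24, adjusted p = 0.0463).

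*Cebpb*, the early C/EBP factor, was at 40.2, 103, 56.0 and 80.7 CPM in untreated and at 69.6, 152 and 76.8 CPM in E+P GFP+ stroma. In tdTomato+ stroma it was at 117, 163, 193 and 133 CPM and at 268, 197 and 212 CPM. It was lower in the GFP+ sample of 7 of 7 mice, by 2.24-fold (log2 -1.17 ± 0.23, adjusted p = 7.8e-04), and in E+P mice alone it was not called (-1.19, adjusted p = 0.0146). *Cebpd* was lower in 5 of 7 mice and missed the threshold (log2 -0.54 ± 0.17, adjusted p = 0.0129), which it passed with the mouse as a block (adjusted p = 0.00365).

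**Figure D2:**
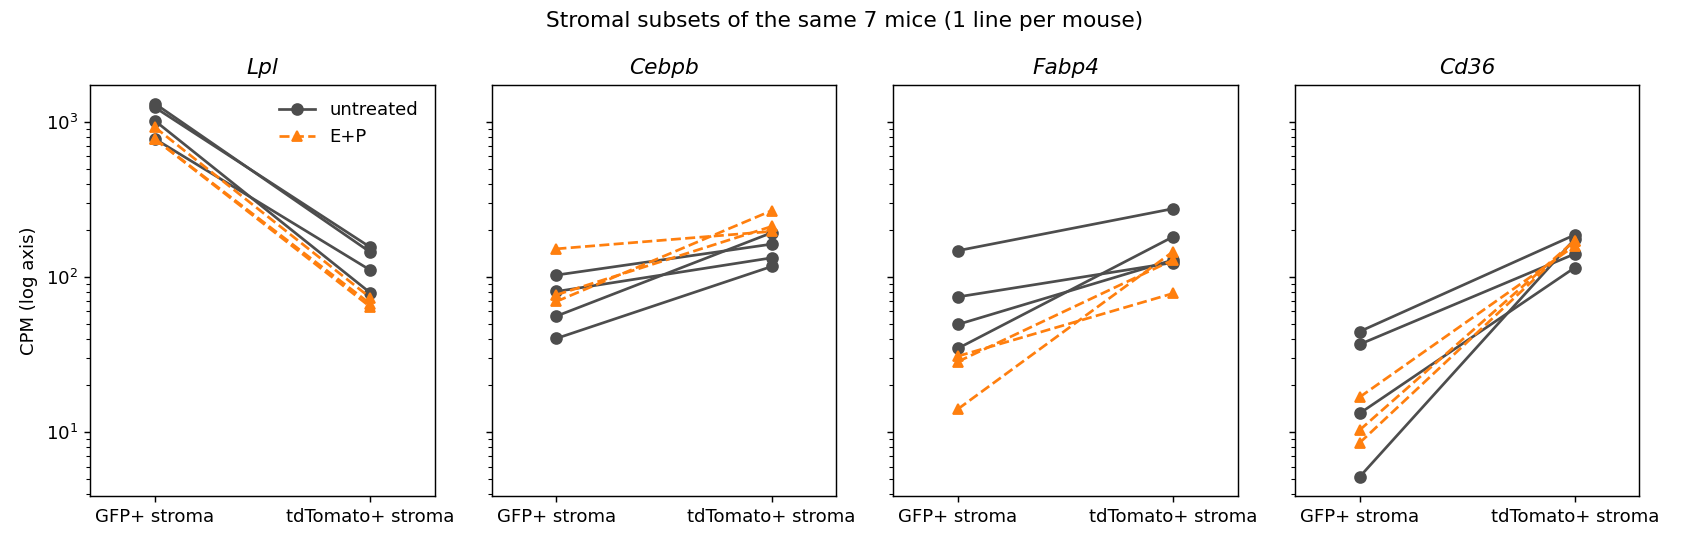
CPM on a logarithmic axis of *Lpl*, *Cebpb*, *Fabp4* and *Cd36* in GFP+ and tdTomato+ stroma, with a line for each mouse (solid grey untreated, dashed orange E+P). All 7 lines fall from GFP+ to tdTomato+ for *Lpl* and all 7 rise for the other genes.

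The other regulators differed little between the stromal subsets. *Pparg* was at 32.7 and 40.1 CPM (log2 -0.31 ± 0.15, adjusted p = 0.09) and *Zfp423* at 28.7 and 24.1 CPM (0.24 ± 0.12, adjusted p = 0.108). *Cebpa* was at 10.6 and 7.38 CPM (0.52 ± 0.32, adjusted p = 0.186). *Plin1* was at 0.183 to 2.87 CPM without and 0 to 0.158 CPM with hormone in GFP+ stroma. In tdTomato+ stroma it was at 0.0903 to 7.31 and 0.306 to 0.97 CPM. It passed the low-count filter in stroma through its tdTomato+ libraries, so its difference is left as these values, with no test. With *Plin1* counted and not called, 4 of 9 members were called (1 higher and 3 lower in GFP+ stroma). This was 44.4%, close to the 42.0% called among 17783 genes. The median log2 difference was -0.54 for these members and -0.01 for all genes.

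Markers of other cells moved with this contrast. All 10 pericyte and smooth muscle markers were called lower in GFP+ stroma, among them *Rgs5* (12.2 against 2197 CPM) and *Myh11* (25.3 against 2505 CPM), and so were all 7 skeletal muscle markers. Of 8 endothelial markers, 6 were lower in GFP+ stroma, such as *Tie1* (0.135 against 6.56 CPM), and *Cldn5* had 0 counts in all GFP+ stromal libraries, while *Tek* was higher (140 against 25.2 CPM). The endothelial sum was 137 to 271 CPM in GFP+ and 67.0 to 279 CPM in tdTomato+ stroma, and the sum of 8 haematopoietic and macrophage markers 3.96 to 7.89 and 21.6 to 39.8 CPM, with 3 called lower. Of 4 tested basal epithelial markers 2 were lower, and of 5 Schwann cell markers 2 were higher and 1 lower. All 8 fibroblast markers were higher in GFP+ stroma, such as *Pdgfra* (2195 against 110 CPM) and *Lum* (1091 against 33.4 CPM). The part of these cells in the lower *Cd36*, *Fabp4* and *Cebpb* and the higher *Lpl* of GFP+ stroma was not tested.

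**Figure D3:**
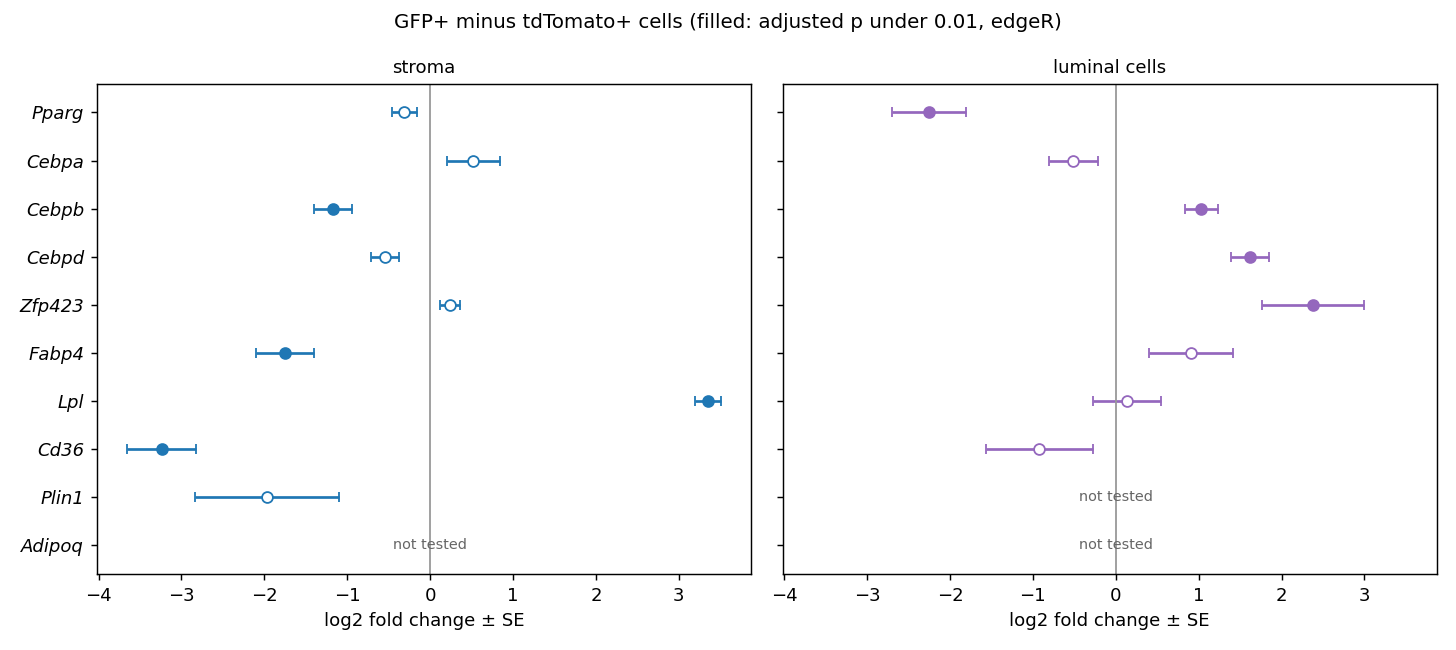
Log2 fold change ± SE of each tested member between GFP+ and tdTomato+ cells, in stroma and in luminal cells (filled points, adjusted p under 0.01). *Lpl* stands at 3.35 in stroma and 0.14 in luminal cells, and *Cebpb* is below 0 in stroma and above 0 in luminal cells. *Zfp423* in luminal cells and *Plin1* in stroma passed the low-count filter through a single colour and are not read as results.

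In luminal cells the same contrast gave a different set. Without hormone *Cebpd* stood at 192, 548, 256 and 299 CPM among GFP+ cells and at 72.4, 65.3, 109 and 92.2 CPM among tdTomato+ cells, and after E+P at 162, 210 and 230 CPM and at 58.8, 75.0 and 103 CPM. The ranges did not overlap, and *Cebpd* was 3.07-fold higher in GFP+ cells (log2 1.62 ± 0.23, adjusted p = 1.1e-04). *Cebpb* was 2.05-fold higher (60.1 against 29.1 CPM, log2 1.03 ± 0.20, adjusted p = 0.00102). *Pparg* was 4.75-fold lower in GFP+ luminal cells (0.697 against 3.06 CPM, log2 -2.25 ± 0.45, adjusted p = 9.4e-04). Each of these differences was seen in 7 of 7 mice. With fewer mice, *Pparg* was not called in untreated (-2.08, adjusted p = 0.0134) or E+P mice alone (-2.42, adjusted p = 0.014), nor *Cebpb* in E+P mice alone (0.84, adjusted p = 0.0441).

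*Zfp423* was also higher in GFP+ luminal cells of 7 of 7 mice, at 0.272 to 4.43 CPM against 0 to 0.651 CPM. It passed the low-count filter in luminal cells through its GFP+ libraries, so the difference is left as these values. Its call in the fit is not read as a result. This call was lost in untreated (adjusted p = 0.0291) and E+P mice alone (0.0645), with the mouse as a block (adjusted p = 0.023), with limma-voom (0.0102), and without untreated replicate 2 (0.0177), untreated replicate 4 (0.0106), E+P replicate 2 (0.0306) or E+P replicate 3 (0.0248). *Cebpa* (log2 -0.51 ± 0.30), *Fabp4* (0.91 ± 0.51), *Lpl* (0.14 ± 0.41) and *Cd36* (-0.92 ± 0.65) did not pass, with adjusted p-values of 0.159 to 0.805. With *Zfp423* counted, 4 of 8 tested members were called, 3 higher and 1 lower, beside 34.7% of 16538 genes. The median log2 difference was 0.53 for these members and 0.00 for all genes. Some markers of other cells were called here too, to be read beside the 34.7% of all genes. Higher in GFP+ cells were 1 of 7 tested fibroblast, 2 of 5 basal epithelial and 3 of 9 pericyte and smooth muscle markers. Lower were 4 of 8 luminal epithelial and 1 of 3 tested endothelial markers. None of 5 mature adipocyte, 2 skeletal muscle or 3 haematopoietic and macrophage markers tested was called. Over untreated mice the fibroblast sum was 35.5 to 109 CPM in GFP+ and 7.67 to 73.9 CPM in tdTomato+ luminal cells, and in E+P mice it was 22.3 to 24.9 CPM and 28.8 to 57.9 CPM. Summed over 5 Schwann cell markers, GFP+ luminal cells held 213 to 314 CPM without and 200 to 253 CPM with hormone, and tdTomato+ luminal cells 109 to 129 and 42.0 to 61.5 CPM. Single genes made up most of these sums. *Sox10*, the 1 of 3 tested markers called higher in GFP+ cells, averaged 181 and 175 CPM there, and *Mbp* 75.8 and 31.6 CPM in tdTomato+ cells. *S100b* had 0 counts in all tdTomato+ luminal libraries and in GFP+ ones after E+P, so the sum does not show Schwann cells. The part of these markers in the members' values was not tested.

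The hormone comparison asked how E+P changes each population. No member was called in the stroma. *Fabp4* in GFP+ stroma had all 3 E+P mice (14.1 to 30.9 CPM) below all 4 untreated mice (34.7 to 148 CPM), with a log2 change of -1.63 ± 0.51 and an adjusted p of 0.282. *Lpl* in tdTomato+ stroma, at 79.3 to 156 CPM without and 64.4 to 73.8 CPM with hormone, had a log2 change of -0.84 ± 0.21 and an adjusted p of 0.0636 in edgeR and 0.0066 in DESeq2. *Cebpd* had log2 changes of -0.59 ± 0.24 in GFP+ and 0.26 ± 0.24 in tdTomato+ stroma (adjusted p of 0.471 and 0.634), and *Pparg* and *Zfp423* had log2 differences between -0.29 and 0.22.

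In edgeR, 0 of 9 members were called in GFP+ stroma, where 0.231% of all genes were called. There 3 members had an unadjusted p under 0.05, among them *Plin1*, whose p is not read as a result. In tdTomato+ stroma 0 of 9 were called, 1 with an unadjusted p under 0.05, where 0.124% of genes were called. DESeq2 called 0 and 1 members and limma-voom 0 in both. The median log2 changes of the 9 members were -0.39 and 0.11, beside 0.00 and -0.03 for all genes. The interaction of subset with hormone in stroma called 0 of 9 (1 with an unadjusted p under 0.05), and 0 with DESeq2 or limma-voom, with 0.0450% of genes called. The highest *Plin1* and *Adipoq* values of GFP+ stroma came from untreated replicate 2, the library that also led its group in luminal epithelial markers (84.7 CPM, against 4.38 to 5.28 CPM in the E+P mice). The summed level of 12 further adipocyte genes in GFP+ stroma was 28.9 to 79.7 CPM without and 16.6 to 31.6 CPM with hormone, with none of 7 tested genes called. Most of it was *Plin4*, which averaged 47.9 and 20.1 CPM within mean sums of 61.7 and 23.8 CPM. The summed level of 8 endothelial markers was 188 to 271 CPM and 137 to 156 CPM, with none called. *Tek* alone averaged 190 and 90.1 CPM, within mean sums of 224 and 145 CPM, and *Cldn5* had 0 counts. The part of the adipocyte and endothelial genes in the *Fabp4* values was not tested.

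**Figure D4:**
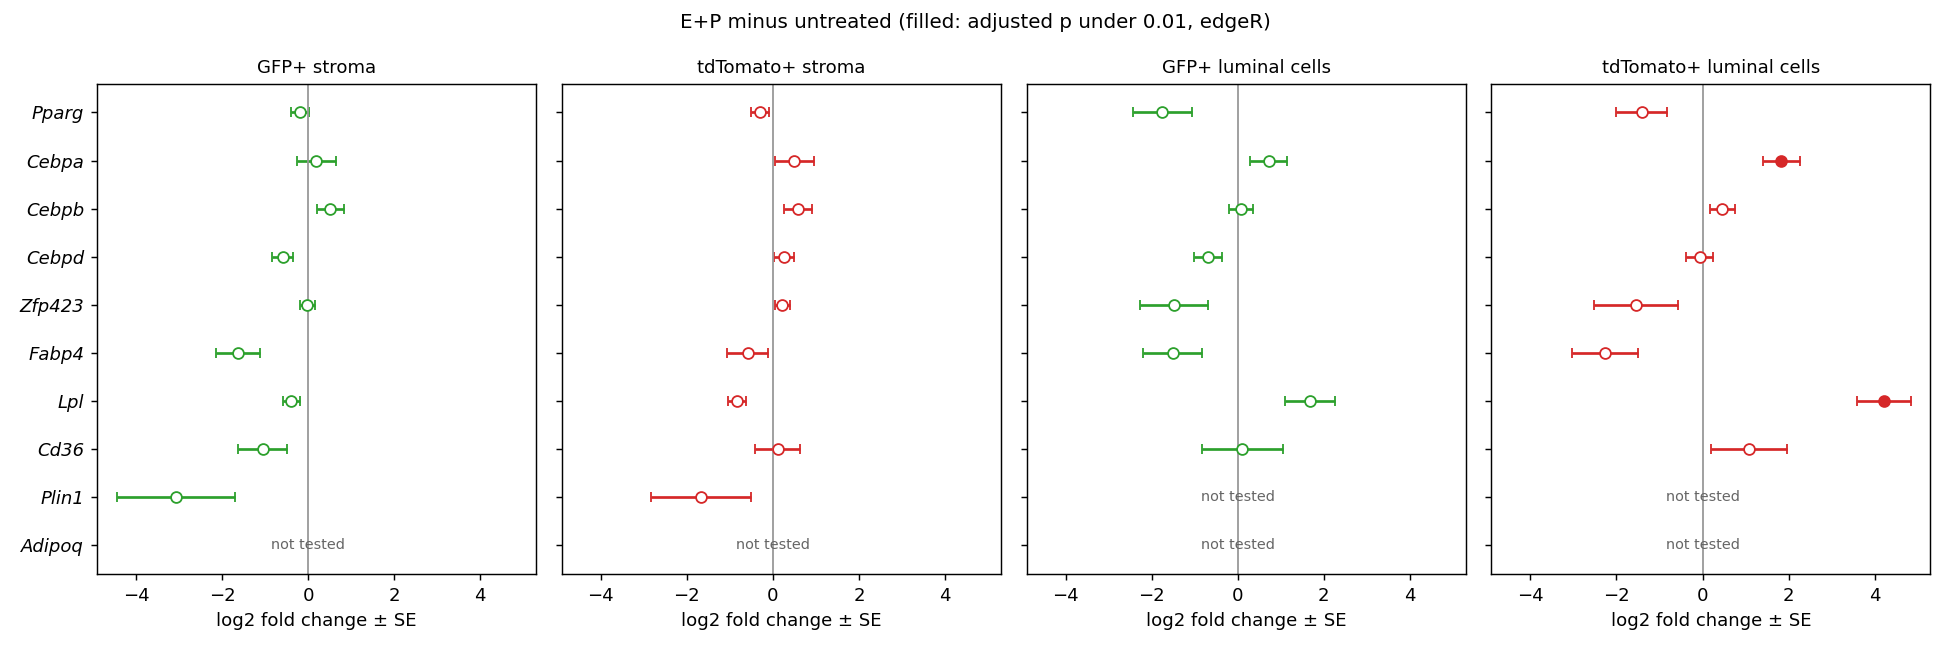
Log2 fold change ± SE of each tested member after E+P against no treatment in the 4 populations (filled points, adjusted p under 0.01). Only *Lpl* (4.21) and *Cebpa* (1.83) in tdTomato+ luminal cells are filled. *Fabp4* in luminal cells passed the low-count filter through untreated libraries alone and is not read as a result.

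Luminal cells held the 2 members that were called after hormone. *Lpl* in tdTomato+ luminal cells was at 1.24, 0.548, 1.73 and 2.56 CPM in untreated and at 53.8, 15.5 and 15.1 CPM in E+P mice. The groups were far apart, and *Lpl* rose 18.4-fold (log2 4.21 ± 0.62, adjusted p = 5.0e-04). Leaving out any mouse kept the call, with adjusted p-values of 2.1e-04 to 0.00413. The size rested in part on E+P replicate 1, without which the log2 change was 3.31. In GFP+ luminal cells *Lpl* was at 3.55, 3.12, 4.05 and 5.82 CPM and at 24.3, 9.15 and 6.74 CPM, and the log2 difference of 1.68 ± 0.58 was not called (adjusted p = 0.0693). E+P replicate 1 was the highest in both. The interaction was -2.52 ± 0.84 (adjusted p = 0.095), and passed with the mouse as a block (adjusted p = 0.00176).

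*Cebpa*, the partner of PPARγ in late differentiation, was at 3.92, 6.14, 5.64 and 9.38 CPM in untreated and at 15.1, 30.7 and 19.9 CPM in E+P tdTomato+ luminal cells. It rose 3.56-fold (log2 1.83 ± 0.43, adjusted p = 0.00701), with all 3 E+P mice above all 4 untreated. Leaving out any mouse other than untreated replicate 4 ended the call, with an adjusted p of up to 0.0388, as did scaling by library size alone (0.0115). In GFP+ luminal cells it was at 6.51 ± 3.13 CPM without and 10.8 ± 5.37 CPM with hormone (SD, n = 4 and 3, log2 0.72 ± 0.43, adjusted p = 0.288).

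*Pparg* leaned the other way in both luminal populations. *Pparg* had log2 differences of -1.75 ± 0.69 in GFP+ and -1.41 ± 0.59 in tdTomato+ luminal cells and did not pass (adjusted p of 0.106 and 0.0906). *Fabp4* was at 0.76 to 1.41 CPM without and 0.323 to 0.544 CPM with hormone in GFP+ cells. In tdTomato+ cells it was at 0.0608 to 1.59 and 0.0801 to 0.19 CPM. It passed the low-count filter in luminal cells through untreated libraries alone, so its change is left as these values, with no test. For *Fabp4* the values with hormone, 0.0801 to 0.544 CPM, were worth few reads. *Cd36* was at 0.171 to 6.41 CPM after E+P in tdTomato+ luminal cells, with the high value from E+P replicate 1 alone.

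**Figure D5:**
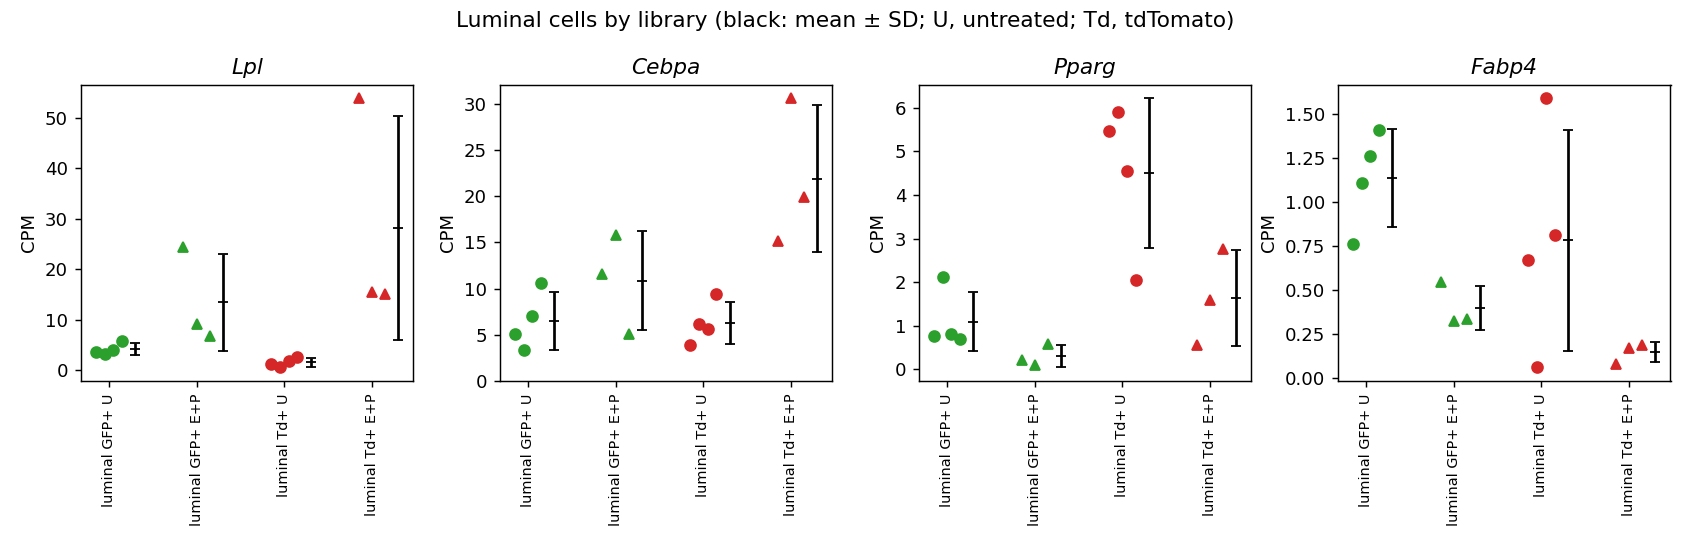
CPM of *Lpl*, *Cebpa*, *Pparg* and *Fabp4* in luminal libraries by group, with mean ± SD (untreated n = 4, E+P n = 3). All E+P points for *Lpl* lie above all untreated points in each colour, and those for *Cebpa* do so in tdTomato+ cells.

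With *Fabp4* counted, the calls were 2 of 8 members in tdTomato+ luminal cells, with 14.1% of genes called there. In edgeR they were 0 of 8 in GFP+ luminal cells, with 5.96% of genes called. There 3 members had an unadjusted p under 0.05, among them *Fabp4*, whose p is not read as a result. DESeq2 and limma-voom gave 0 calls in GFP+ luminal cells too. The members' median log2 changes were 0.20 and -0.30, beside -0.05 and -0.03 for all genes. The interaction called 0 of 8 in edgeR (1 with an unadjusted p under 0.05) and 0 with DESeq2 or limma-voom, against 2.27% of genes. In tdTomato+ luminal cells some markers of other cells were called as well, to be read beside the 14.1% of all genes. The fibroblast marker *Dcn* rose from 4.72 to 35.5 CPM, the only one of 7 tested fibroblast markers that was called, while the fibroblast sum was 7.67 to 73.9 CPM without and 28.8 to 57.9 CPM with hormone. The basal epithelial markers *Trp63* (1.15 to 22.2 CPM) and *Krt17* (2.56 to 13.2 CPM) rose too, 2 of 5, as did 1 of 3 tested haematopoietic and macrophage markers. The Schwann cell sum was 121 ± 9.29 CPM without and 51.3 ± 9.78 CPM with hormone (SD, n = 4 and 3). Most of it was *Mbp* (75.8 and 31.6 CPM), the 1 of 3 tested markers called lower. Of 8 luminal epithelial markers, 2 rose. None of 3 endothelial, 9 pericyte and smooth muscle or 2 skeletal muscle markers tested was called. The part of all these markers in the *Lpl* and *Cebpa* values was not tested.

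Wider lists of the pathway gave the setting of the members. Of 20 further transcription factors that promote adipogenesis, 2 were higher and 6 lower in GFP+ than in tdTomato+ stroma, where 42.0% of all genes were called, with a median log2 difference of -0.30 beside -0.01 for all genes. Higher were *Egr2* (log2 1.17 ± 0.16), which acts upstream of *Cebpb*, and *Klf4* (416 against 210 CPM). Lower were, among others, *Ppargc1b*, a coactivator of PPARγ (3.47 against 27.9 CPM), and *Zfp467* (4.24 against 11.6 CPM). Of 20 regulators that restrain adipogenesis, 6 were higher, such as *Wnt5a* (46.8 against 7.57 CPM) and *Runx1t1* (80.1 against 35.6 CPM), and 12 lower, such as *Foxc2* (0.621 against 9.17 CPM) and *Trib2* (4.14 against 12.7 CPM), with a median of -0.65.

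Of 26 further lipid genes, 22 were tested in the stroma, and 4 were higher and 9 lower in GFP+ cells (median -0.49), again beside 42.0% of all genes called. *Plin2*, a droplet coat found in many cells, was at 182 against 53.7 CPM, and *Angptl4*, a secreted inhibitor of lipoprotein lipase, at 180 against 80.1 CPM, so both were higher beside *Lpl*. *Dgat1*, which completes triglyceride synthesis, was at 8.64 against 48.6 CPM. *Slc2a4*, the insulin-sensitive glucose transporter of fat and muscle, was at 0.571 against 20.5 CPM. Of 12 further genes of the mature adipocyte, 4 of which are in the lipid list, 7 were tested and 3 were lower in GFP+ stroma. These were *Car3* (4.30 against 485 CPM), which muscle makes too, *Sncg* (0.504 against 39.8 CPM) and *Slc2a4*.

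After E+P, 5.96% of all genes were called in GFP+ and 14.1% in tdTomato+ luminal cells, and the lists are read beside those shares. *Stat5a*, the factor through which prolactin signals, rose from 74.8 to 262 CPM in GFP+ (adjusted p = 8.4e-05) and from 117 to 356 CPM in tdTomato+ luminal cells (adjusted p = 2.3e-05). Of the 20 pro-adipogenic factors 18 were tested there, with 2 higher in GFP+ and 5 higher and 1 lower in tdTomato+ cells. Of 15 tested factors that restrain adipogenesis, 1 rose in GFP+ (*Foxo1*, 55.5 to 78.7 CPM), and in tdTomato+ cells 1 rose (*Klf2*, 4.87 to 26.2 CPM) and 2 fell (*Ddit3*, 109 to 15.6 CPM, and *Ncor1*). Among 22 lipid genes, *Lipe*, the hormone-sensitive lipase, fell from 77.7 to 38.8 CPM and *Cav1* from 107 to 18.9 CPM in tdTomato+ luminal cells, where *Bscl2* rose from 17.0 to 27.3 CPM, and *Agpat2* fell from 10.3 to 6.14 CPM in GFP+ luminal cells. In GFP+ stroma *Egr2* rose from 74.5 to 201 CPM (adjusted p = 0.00527) and *Cav1* from 74.6 to 137 CPM (adjusted p = 0.00793), and in tdTomato+ stroma no gene of these 3 lists was called. No mature adipocyte gene was called after E+P in any population.

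Across all 28 libraries the genes whose log2 CPM most resembled each member were also found, as a description over libraries that share mice and differ mainly by lineage. *Zfp423* was most like *Col4a1* (Pearson r = 0.984) and *Pparg* like *Parp3* (0.968) and *Tns2* (0.967). *Lpl* was most like *Asap1* (0.978), *Fabp4* like *Tns1* (0.978) and *Cd36* like *Daam2* (0.964). Among the C/EBP genes, *Cebpb* was most like *Irs2* (0.933), which encodes an insulin receptor substrate, and *Cebpd* like *Igf1r* (0.914), which encodes the receptor of IGF-1. *Cebpa* had no close match, its nearest being *Mex3d* (0.772). By Spearman's rho *Fabp4* and *Cd36* had the same nearest genes, and the others different ones, such as *Klhl7* for *Pparg* (0.938), *Csf1* for *Zfp423* (0.953), *Cdk14* for *Lpl* (0.979), *Gucy1a2* for *Cebpb* (0.933) and *Tmtc2* for *Cebpd* (0.872).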

How the data were processed

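Per the labels, low-input stranded total RNA libraries of sorted cells were sequenced paired-end; RNA integrity varied over nearly the whole scale between samples. The authors aligned reads with STAR 2.5.2a to GRCm38.p5 and deposited whole-number read counts per Ensembl gene, without normalization; the annotation release, the strand setting of the counting and the hormone dose given to these mice are not given in the sources used here. The members and lists were chosen with earlier results of these data known. Symbols came from the GENCODE M21 annotation, in which all members had the same version.

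Counts were fitted with edgeR 4.0.16 (R 4.3.3) by the quasi-likelihood test, with TMM scaling, edgeR's expression filter and robust dispersion, a separate fit for stroma, for luminal cells and for both, and Benjamini-Hochberg adjustment over all genes tested. An adjusted p under 0.01, the study's threshold, was a call. Of the list genes, up to 2 called per direction and list whose higher group averaged 5 CPM or more were named, those with the greatest change. CPM used TMM-scaled library sizes, and likeness used log2 CPM with a prior count of 2. Genes below the filter had exact permutation tests. Alternatives were DESeq2 1.42.0, limma-voom (limma 3.58.1), other scalings, no filter, blocks, each treatment alone and leaving out each mouse. Counting errors of single libraries cover counting only. The test was tested on simulated data with known changes. For E+P in GFP+ stroma it called 18.3% of genes with a true log2 change of 1 and 61.1% with 2. For E+P in tdTomato+ luminal cells it called 21.2% and 50%. A member that was not called may therefore still have changed.

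The 4 populations with the same number come from the same mouse. Deviations from the group means correlated between GFP+ and tdTomato+ samples of a mouse with a mean r of 0.0496 in stroma and 0.157 in luminal cells, against -0.0194 and -0.0605 between different mice. The mouse was a block in an alternative, and its adjusted p is given beside each result whose call it changed.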

Additional observations from a re-analysis of the deposited data

Results flagged for a closer look

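The *Pparg* level of GFP+ luminal cells in untreated replicate 2 was 2.11 CPM, far from the other 3 untreated mice (0.707 to 0.8 CPM), by Dixon's criterion for 4 samples. Chance flags about 1 in 20 groups, and 36 groups were examined.

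The difference between stroma and luminal cells differed between GFP+ and tdTomato+ cells, by the interaction term of the edgeR fit, for 6 of 9 tested members. Of 19569 genes, 33.2% were called. The log2 value was 1.94 for *Pparg*, -2.21 for *Cebpb*, -2.16 for *Cebpd*, -2.16 for *Zfp423*, -2.65 for *Fabp4* and 3.20 for *Lpl*. The *Fabp4* call was lost with limma-voom, and those of *Pparg*, *Zfp423* and *Fabp4* without E+P replicate 2. That of *Zfp423* rests on luminal values near the level of 3 counts and is not read as a result.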

How the results depend on the processing

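Of the member log2 fold changes recomputed under an alternative, 1338 kept their direction and side of the threshold, 23 gained a call, 30 lost it, and 41, none of them called, changed sign. With the mouse as a block, calls changed for *Cebpd* in the stromal subset contrast, *Zfp423* in the luminal one and *Lpl* in the luminal interaction, which then had 1 called member, and no other call changed. Untreated and E+P mice share only a number (mean r of -0.0149, against 0.005 for different numbers). A block on that number changed no call and turned *Cd36* after E+P to -0.09 in tdTomato+ stroma and -0.06 in GFP+ luminal cells.

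Between luminal subsets 2 members were called in untreated and 1 in E+P mice alone. Without the low-count filter, E+P called 2 members in GFP+ stroma, 1 in tdTomato+ stroma and 1 in tdTomato+ luminal cells, and the stromal interaction 2. In that setting 459 and 840 genes were called after E+P in GFP+ and tdTomato+ stroma, against 41 and 22. DESeq2 called 1 member in tdTomato+ stroma after E+P. Scaling by library size alone called 1 in tdTomato+ luminal cells. Leaving out 1 mouse gave 3 to 6 called members between stromal subsets, 3 to 4 between luminal subsets, 3 to 6 in the lineage interaction and 1 to 2 after E+P in tdTomato+ luminal cells. Without untreated replicate 2 the latter were *Lpl* and, in place of *Cebpa*, *Fabp4*, and the calls between stromal subsets included *Plin1*. These calls of *Fabp4* and *Plin1* are not read as results. *Fabp4* passed the low-count filter in luminal cells through untreated libraries, and *Plin1* in stroma through tdTomato+ ones. The counts of the other comparisons were the same without any mouse. The cause of these changes was not tested. Apart from the unfiltered E+P fits in stroma, the share of all genes called in each setting is not given here. The counts of called members in this paragraph are therefore not read as results about the members.

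Library size scaling moved the median log2 fold change of all genes to -0.42 and -0.13 for stroma against luminal cells (GFP+, tdTomato+), -0.28 for the lineage interaction, 0.14 between luminal subsets, -0.14 and -0.27 after E+P in luminal cells, and 0.13 for their interaction. The share of calls that were higher moved from 52.8% to 35.7% (GFP+ stroma against luminal), 49.0% to 37.6% (lineage interaction), 45.3% to 60.8% (luminal subsets), 53.3% to 36.0% and 54.2% to 25.2% (E+P, luminal) and 34.6% to 55.2% (luminal interaction).

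Of the differences that changed sign, for GFP+ stroma against GFP+ luminal cells *Cebpa* was -0.06 with library size scaling, and *Cebpd* 0.01 with limma-voom, 0.00 in E+P mice alone and -0.09 to 0.06 without 1 mouse. Between luminal subsets *Cebpa* was 0.04 in untreated mice alone, *Lpl* -1.12 in E+P mice alone, and *Cd36* 0.05 with limma-voom and -1.09 to 0.23 without 1 mouse. After E+P in GFP+ stroma, leaving out 1 mouse gave -0.65 to 0.53 for *Cebpa* and -0.13 to 0.11 for *Zfp423*, and in tdTomato+ stroma -0.01 to 0.21 for *Cd36*. In GFP+ luminal cells *Cebpb* was -0.02 with library size scaling and -0.21 to 0.27 without 1 mouse, and *Cd36* -0.38 to 0.43. In tdTomato+ luminal cells the ranges were -0.31 to 0.08 for *Cebpd* and -1.67 to 1.67 for *Cd36*, which was -0.52 with limma-voom. For the stromal interaction the ranges were -0.06 to 0.19 for *Pparg*, -1.34 to 0.14 for *Cebpa*, -0.60 to 0.30 for *Cebpb* and -3.27 to 0.39 for *Plin1*. For the luminal interaction they were -0.74 to 0.03 for *Pparg*, -0.86 to 1.00 for *Zfp423* and -1.73 to 1.29 for *Cd36*, which was 0.52 with limma-voom and 0.00 with the mouse block. With 3 counts worth up to 0.302 CPM, differences in *Adipoq*, *Plin1* and the luminal *Fabp4* and *Zfp423* were not detectable unless large.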
